A study of Rattus norvegicus with 20 samples.

Results

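Rat alveolar type I-like epithelial cells that were stretched in the presence of a PERK inhibitor (S_PI) were compared with unstretched cells kept in vehicle (NS), to ask how far stretched, inhibited cells stood from resting cells. The members were the 5 S_PI and 5 NS libraries, 10 of the 20 libraries of the series, each S_PI library being set against the NS library of the same number, read as the same animal. Primary type II cells of Sprague-Dawley rats had been grown for 4 days on fibronectin-coated silastic membranes, where they take on features of type I cells, and each library held RNA pooled from 4 monolayers of 1 animal. NS cells had 0.01% DMSO for 24 h and no stretch. S_PI cells had 1 µM GSK2606414, a small-molecule inhibitor of the kinase PERK, for 18 h, followed by cyclic stretch in both axes for 6 h with a 25% change in surface area and 15 cycles per min. The remaining groups were stretched cells in 0.01% DMSO (S) and unstretched cells in the inhibitor (NS_PI), with 5 libraries each. S_PI and NS differ in both stretch and inhibitor, so neither can be assigned a difference from this comparison alone. Whether S_PI and NS_PI cells also had DMSO is not stated in the labels, so vehicle matching could not be checked.

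Type I cells are the thin, wide cells that line most of the gas-exchange surface, and they are stretched with every breath, to excess in mechanical ventilation. PERK, encoded by Eif2ak3, is a kinase in the membrane of the endoplasmic reticulum that senses unfolded protein and phosphorylates the initiation factor eIF2α. This lowers general protein synthesis and favours translation of the transcription factor ATF4, whose targets include Ddit3 (CHOP), the phosphatase subunit Ppp1r15a (GADD34), the pseudokinase Trib3 and genes of amino acid supply. GCN2, PKR and HRI phosphorylate the same site of eIF2α, so ATF4 can also be raised without PERK. This branch is known as the integrated stress response.

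The stretched, inhibited cells stood far from resting cells. Of 8320 genes tested, 2006 (24.1%) passed the test at an adjusted p below 0.05, 984 (11.8%) higher and 1022 (12.3%) lower in S_PI. At least 2-fold changes were called for 252 genes higher (3.03%) and 379 lower (4.56%). With scaling by library size only, the calls split into 725 higher and 1363 lower, and the median over all genes lay at -0.10 on the log2 scale. Leaving out animal 3 left 676 lower calls, and a fit without pairing by animal called 735 genes in all. The test was edgeR's quasi-likelihood F test with the animal as a block, and p-values were adjusted by the Benjamini-Hochberg method over all tested genes. Levels are counts scaled by TMM factors to a library of 1000000 counts (CPM), and log2 fold changes are fitted, each with its standard error (SE, 5 animals per group).

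The 10 libraries held 1348640 to 1980087 counts in genes. The mean S_PI minus NS difference in counts was -177606 ± 222878 (SD, n = 5 pairs) (exact paired permutation test, two-sided p = 0.25, where 0.0625 is the smallest p that 5 pairs allow). A floor of 3 counts corresponded to 1.38 to 2.28 CPM. In a principal component analysis of the 10 libraries, the first component held 31.3% of the variance and separated mainly animals, while the second held 25.7% and separated mainly the groups. The S_PI library of animal 1 lay farthest out on the second component, at -56.4.

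Promoter sequences are shown for some named genes, chosen because their promoters hold the letters of motifs bound by stretch- and stress-responsive factors. AP-1 dimers of FOS and JUN proteins bind TGANTCA. Among the 12 genes with the largest rises, 11 had a promoter entry, and the AP-1 letters were found on either strand in 5 of these 11 promoters (45.5%), against 4.86% of the promoters of all 6815 tested genes with an entry. Over all genes called higher the share was 5.77%, and over all called lower 5.63%. Among the 12 largest falls, 9 had an entry, and 1 of these, Scnn1g, held the AP-1 letters (11.1%). For the 5 rises, the AP-1 letters, in capitals, lay in these stretches from RefSeq (build GRCr8), given 5′ to 3′ on the strand of the gene. 
Serpinb2 (chr13:24055805-24055865, plus strand): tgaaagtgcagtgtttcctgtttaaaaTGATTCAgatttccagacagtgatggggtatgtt
Il11 (chr1:78098453-78098513, plus strand): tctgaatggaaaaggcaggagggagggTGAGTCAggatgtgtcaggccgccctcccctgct
Mmp13 (chr8:12782736-12782796, plus strand): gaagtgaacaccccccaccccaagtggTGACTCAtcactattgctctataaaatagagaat
Emp1 (chr4:169943991-169944175, plus strand): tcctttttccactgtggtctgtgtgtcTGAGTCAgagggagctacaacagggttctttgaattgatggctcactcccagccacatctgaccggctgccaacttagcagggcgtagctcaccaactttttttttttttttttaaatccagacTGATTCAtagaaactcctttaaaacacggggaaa
Tnfaip6 (chr3:56911179-56911239, plus strand): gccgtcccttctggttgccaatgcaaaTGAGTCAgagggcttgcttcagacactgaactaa

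Further promoters held the NF-κB site (Cxcl2), the cAMP response element TGACGTCA (CRE; Ppp1r15a) and the CArG box of serum response factor (Acta1), again in capitals, with overlapping matches joined. 
Cxcl2 (chr14:17467292-17467356, minus strand): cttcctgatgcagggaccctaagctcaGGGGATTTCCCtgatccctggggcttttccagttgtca
Ppp1r15a (chr1:105139628-105139689, minus strand): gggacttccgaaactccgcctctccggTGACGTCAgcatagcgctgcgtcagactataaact
Acta1 (chr19:68784252-68784315, minus strand): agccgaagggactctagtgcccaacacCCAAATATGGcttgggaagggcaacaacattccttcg
The NF-κB site stood in 9.64% of all promoters and the CRE and CArG letters in 3.40% and 1.29%. Of the promoters of the largest rises, 2 of 11 held the NF-κB site (18.2%), and of those of the largest falls 2 of 9 (22.2%). The CRE and the AP-1 letters cannot match at one position. A match of letters is a description of the window of 250 bases before to 50 bases after the start of the gene and says nothing about binding.

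The 12 largest rises ranged from 2.11 to 3.20 log2 units. Csrnp1, a nuclear protein of the immediate-early class, was at 31.8, 25.2, 40.9, 31.2 and 29.3 CPM in the NS libraries of animals 1 to 5 and at 457, 311, 359, 175 and 157 CPM in their S_PI libraries. Every S_PI library lay above every NS library. Csrnp1 rose by 3.11 ± 0.19 (log2 fold change ± SE, edgeR adjusted p = 8.30e-10). Its difference from stretched cells without inhibitor was -0.11, with a 95% interval of -0.45 to 0.23.

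Il11, a cytokine of the interleukin 6 family, went from 5.54, 17.8, 18.0, 63.6 and 72.7 CPM in NS to 79.1, 113, 87.5, 379 and 234 CPM in S_PI. The groups did not overlap, and the rise was 2.52 ± 0.21 (adjusted p = 8.84e-08). Ptgs2, the inducible cyclooxygenase, had low resting levels of 1.38, 3.45, 3.10, 1.18 and 3.25 CPM and reached 56.2, 7.93, 9.33, 13.0 and 17.7 CPM. The resting levels were close to the floor, the groups did not overlap, and the rise of 2.87 ± 0.42 (adjusted p = 7.50e-05) ranged from 0.99 in animal 2 to 4.52 in animal 1. Mmp13, a collagenase, went from 1.38, 8.39, 8.68, 20.0 and 20.1 to 64.7, 59.2, 57.7, 38.9 and 46.4 CPM, also without overlap and also highest in S_PI animal 1. Its rise was 2.26 ± 0.39 (adjusted p = 0.000352).

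Emp1, a membrane protein of epithelia, went from 172, 119, 145, 105 and 113 CPM in NS to 984, 455, 483, 456 and 673 CPM in S_PI, a rise of 2.20 ± 0.18 (adjusted p = 8.84e-08). Klf4, a zinc-finger transcription factor of epithelia, rose by 2.42 ± 0.26, and Fosl1, the AP-1 subunit FRA1, by 2.16 ± 0.31. None of these 3 genes had overlapping groups. Serpinb2, an inhibitor of plasminogen activators, rose by 2.59 ± 0.46, but its groups overlapped and animal 2 showed a difference of only 0.26. The neutrophil chemokine Cxcl2 rose by 2.21 ± 0.24, the hyaluronan-binding protein Tnfaip6 by 2.11 ± 0.30, the protocadherin Pcdh18 by 2.40 ± 0.25 and the matrix protein Cilp2 by 3.20 ± 0.46. Cilp2 was at a mean of 2.04 CPM in NS, near the floor. Over the 12 largest rises, 9 had groups that did not overlap, against 4.51% of all tested genes that lay higher without overlap. These genes were taken for their size, so that share describes them only.

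The largest fall among these named genes was that of Ankrd1. Ankrd1, a muscle ankyrin repeat protein and known target of YAP, was at 725, 524, 681, 1932 and 2136 CPM in NS and at 35.0, 92.7, 77.0, 156 and 207 CPM in S_PI. The groups did not overlap, and Ankrd1 fell by 3.40 ± 0.28 (adjusted p = 6.11e-08). Acta1, skeletal muscle α-actin, went from 455, 167, 105, 67.7 and 36.3 CPM to 42.4, 23.2, 25.7, 6.86 and 5.45 CPM. Its level was lower in each animal's S_PI library than in its own NS library, although the groups overlapped, the S_PI library of animal 1 lying above the NS library of animal 5. Acta1 fell by 2.86 ± 0.33 (adjusted p = 9.77e-06).

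Scnn1g, the γ subunit of the epithelial sodium channel through which alveolar cells clear fluid, had 152, 115, 67.0, 5.89 and 5.97 CPM in NS and 2.29, 25.0, 13.4, 0 and 0 CPM in S_PI. The groups overlapped, and no count was found in the S_PI libraries of animals 4 and 5. Scnn1g fell by 2.98 ± 0.46 (adjusted p = 0.000113). Cebpd, a C/EBP transcription factor, went from 24.9, 68.6, 54.6, 81.3 and 70.5 to 6.30, 13.4, 9.91, 13.0 and 17.7 CPM and fell by 2.29 ± 0.17, with differences of -2.55 to -1.81 in the 5 animals. Cldn23, a claudin of tight junctions, fell by 2.20 ± 0.35, Pik3ip1, a negative regulator of PI3 kinase, fell by 2.43 ± 0.45, and Atp12a, a proton-potassium pump subunit, by 2.19 ± 0.37. Tuba8, an α-tubulin, fell by 2.59, the chemokine Ccl1 by 2.40, the doublecortin-domain protein Dcdc2 fell by 2.37, RGD1563692 by 2.47 and Tmem140 by 2.31. Of the 12 largest falls, 9 had groups that did not overlap, against 4.82% of all tested genes that lay lower without overlap. The falls too were taken for their size, so that share describes them only.

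**Figure D1:**
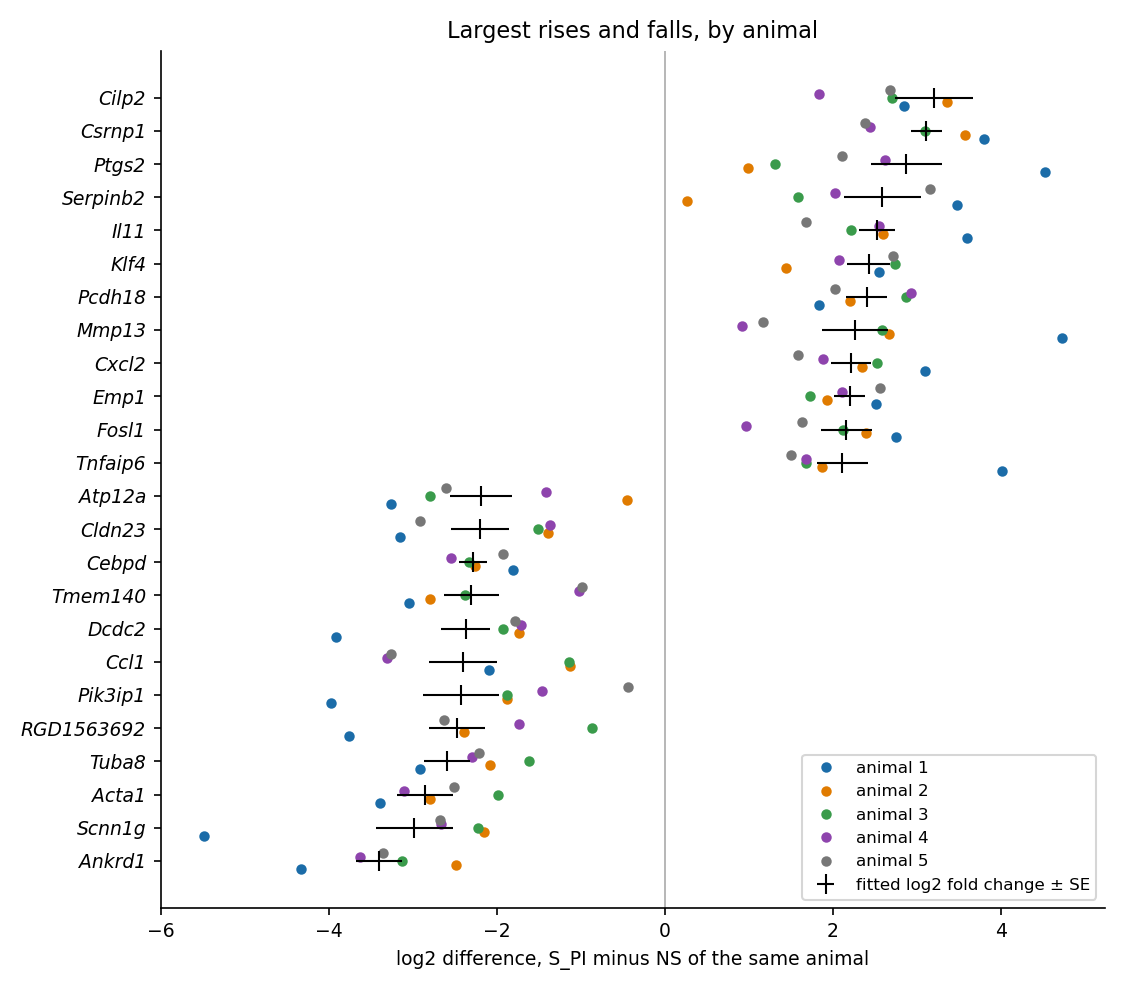
Log2 difference in CPM between the S_PI and NS library of each animal (dots, x axis) for the 12 largest rises and 12 largest falls, with the fitted log2 fold change and its SE (black crosses). Every dot lies on the side of its gene's call because genes were taken only if the sign was the same in every animal. Animal 1 often lies farthest out.

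The difference between S_PI and S tests directly whether a gene stood elsewhere in stretched cells with inhibitor than without, in either direction. By edgeR, 0 of 8320 genes passed it, where 340 (4.09%) had an unadjusted p below 0.05, and DESeq2 also called 0. The smallest adjusted p was 0.999. The median 95% interval of that difference reached 0.43 log2 units to either side, and for 7312 genes (87.9%) the interval lay within a 2-fold change in both directions. For the other genes a 2-fold effect of the inhibitor in stretched cells was neither detected nor left out at this number of animals. S against NS called 2075 genes (24.9%), 1044 higher (12.5%) and 1031 lower (12.4%), and NS_PI against NS called 0 (edgeR, 455 with an unadjusted p below 0.05, 5.47%, against 5 calls by DESeq2). The comparisons of S_PI and of S with NS share the 5 NS libraries, so their values are given side by side and their likeness is not evidence.

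The 12 largest rises lay between 2.11 and 3.20 in S_PI against NS and between 1.93 and 3.22 in S against NS. Their S_PI to S differences ranged from -0.46 for Serpinb2 to 0.47 for Pcdh18, and 9 of the 12 intervals left out a 2-fold change. The 12 largest falls lay between -3.40 and -2.19 in S_PI and between -3.26 and -1.26 in S. Their intervals were wider, and only 2 of 12 left out a 2-fold change. These genes were taken for their S_PI to NS differences, which use the same S_PI libraries, so their S_PI to S differences describe them only. Acta1, picked for the lowest unadjusted p of these 24 genes, had -1.19 ± 0.35 (edgeR unadjusted p = 0.00291, adjusted p = 0.999). It was lower in S_PI than in S in 4 of 5 animals. In animal 1 it had 298 CPM in S and 42.4 in S_PI, and in animal 2 it had 17.8 and 23.2 CPM. Cldn23, at -0.94 ± 0.38, and Tmem140, at -0.90 ± 0.36, were likewise lower in S_PI than in S without passing adjustment.

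**Figure D2:**
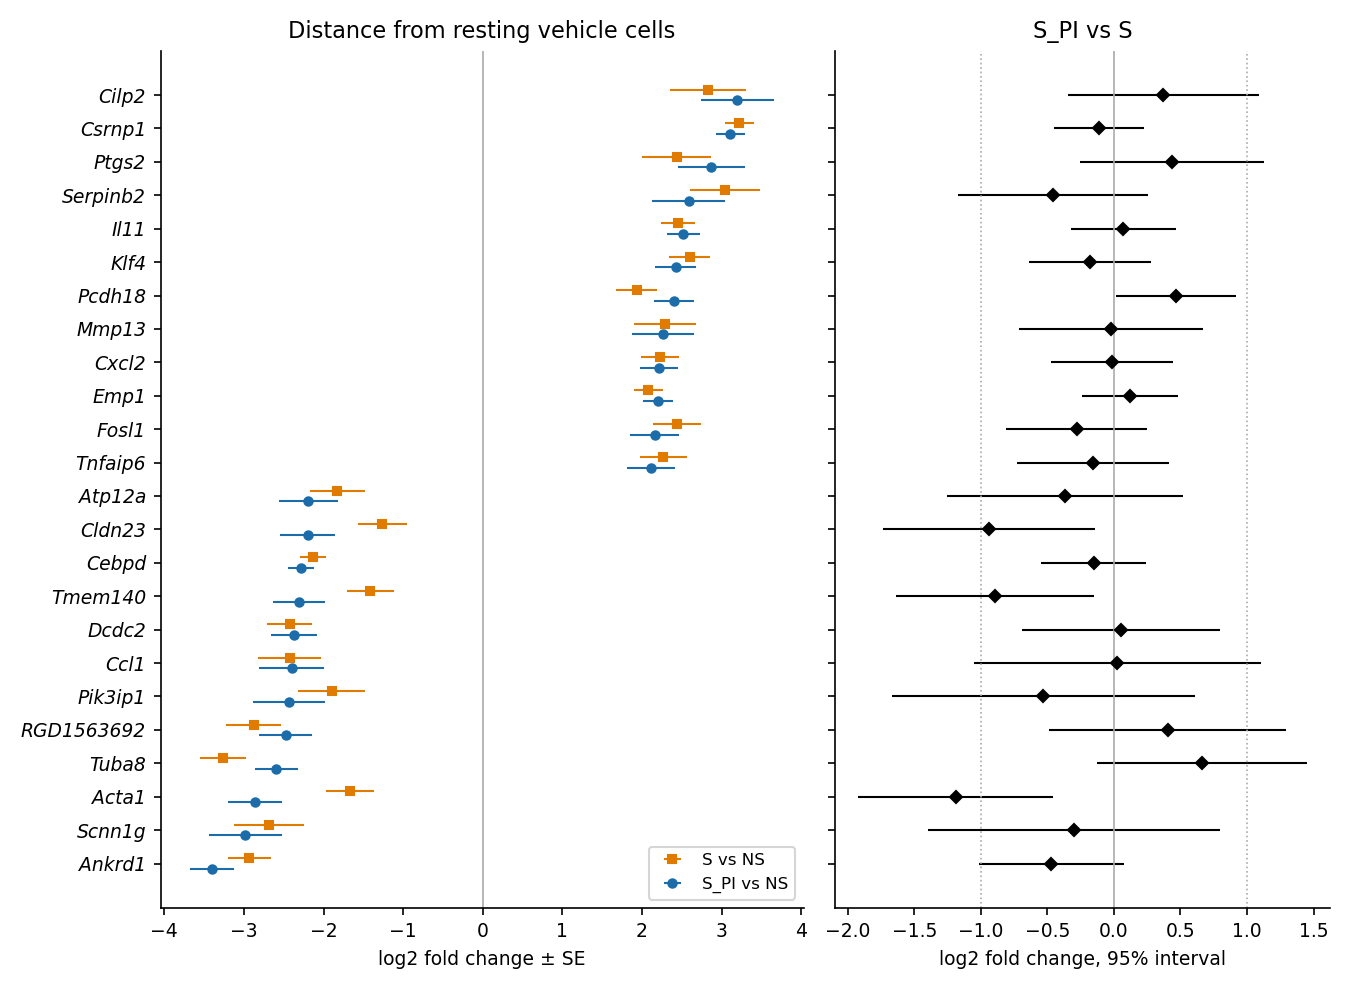
Left, fitted log2 fold change ± SE (x axis) of the 24 genes with the largest changes, for S against NS (squares) and S_PI against NS (circles). Right, the S_PI to S difference with its 95% interval; dotted lines mark 2-fold, and 11 of 24 intervals lie between them.

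Genes of PERK's own pathway were higher in part in stretched, inhibited cells. Of 16 tested members of a list of the integrated stress response, 8 were called higher and 1 lower. Over all tested genes, 11.8% were called higher and 12.3% lower. The list had a median log2 fold change of 0.39, beside a median of -0.01 over all tested genes. In S against NS the list's median was 0.58, with 8 called higher and 1 lower. Atf4, the central transcription factor, was at 953, 1734, 1887, 1496 and 1389 CPM in NS and at 2221, 3714, 3309.7, 3058 and 2424 CPM in S_PI. The groups did not overlap, and Atf4 rose by 0.99 ± 0.15 (adjusted p = 8.11e-05). Its rise in S was 0.97, and the S_PI to S difference of 0.02 had an interval of -0.28 to 0.32. Atf4 is regulated largely in translation, which these RNA counts do not measure.

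Ppp1r15a, whose product directs the dephosphorylation of eIF2α, went from 29.5, 61.2, 83.7, 77.2 and 70.5 CPM in NS to 193, 445, 440.3, 185 and 144 CPM in S_PI, again without overlap. It rose by 2.05 ± 0.25 (edgeR adjusted p = 1.36e-05). Its promoter holds the CRE shown above and also the AP-1 letters. The CRE stood in 1.76% of the promoters of genes called higher, 4.41% of those called lower and 3.40% of all. The transcription factor Ddit3 rose by 0.85 ± 0.14 and Herpud1, a component of the degradation of misfolded proteins from the endoplasmic reticulum, by 1.19 ± 0.18. Chac1, which breaks down glutathione, rose by 1.12, the stress-induced Atf3 by 0.61 and Sesn2, an inhibitor of mTORC1, by 0.55. Vldlr, a lipoprotein receptor, fell by 0.94.

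Trib3 was not called. This ATF4 target had 21.7, 119.9, 87.4, 91.9 and 90.6 CPM in NS, 18.6, 49.6, 25.8, 58.5 and 55.7 CPM in NS_PI, 64.4, 124, 63.0, 161 and 133 CPM in S and 20.1, 83.0, 50.7, 109.8 and 83.2 CPM in S_PI. Levels were lower with inhibitor in 5 of 5 animals at rest and in 5 of 5 under stretch. Its S_PI to NS difference was -0.28 ± 0.20 (adjusted p = 0.318), beside 0.46 in S, and the S_PI to S difference was -0.75 ± 0.20 (unadjusted p = 0.00118, adjusted p = 0.999). The single-gene p was small but did not survive adjustment over all genes. Cebpb, at 0.22 in S_PI and 0.57 in S, and Cth, at -0.55 and 0.04, were not called in S_PI.

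The kinase target itself was measured as RNA, which does not report inhibition of the enzyme. Eif2ak3 had 142, 151, 141, 95.4 and 90.0 CPM in NS and 235, 339, 264, 155 and 149 CPM in S_PI. It rose by 0.85 ± 0.22 (adjusted p = 0.00778) and was higher in 5 of 5 animals, although the groups overlapped. In S against NS it had 0.32, and in S_PI against S 0.52 (edgeR unadjusted p = 0.0245). The latter was not called, the smallest adjusted p of any gene in S_PI against S being 0.999. Of 12 tested sensors and reported inhibitor targets, 4 were called higher (33.3%) and 1 lower (8.33%), beside 11.8% and 12.3% over all genes. Besides Eif2ak3, Nck1, Ripk1 and Ppp1r15b were higher, by 0.67, 0.55 and 0.56, and Eif2ak4, which encodes GCN2, fell by 0.56. Without animal 5 the list held 2 higher, Ripk1 not being called (adjusted p = 0.103), and Eif2ak4 was not called without animal 1, 2, 4 or 5 (adjusted p = 0.0736, 0.055, 0.0544 and 0.0722). Kit and Ern1 did not pass the filter on low counts.

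**Figure D3:**
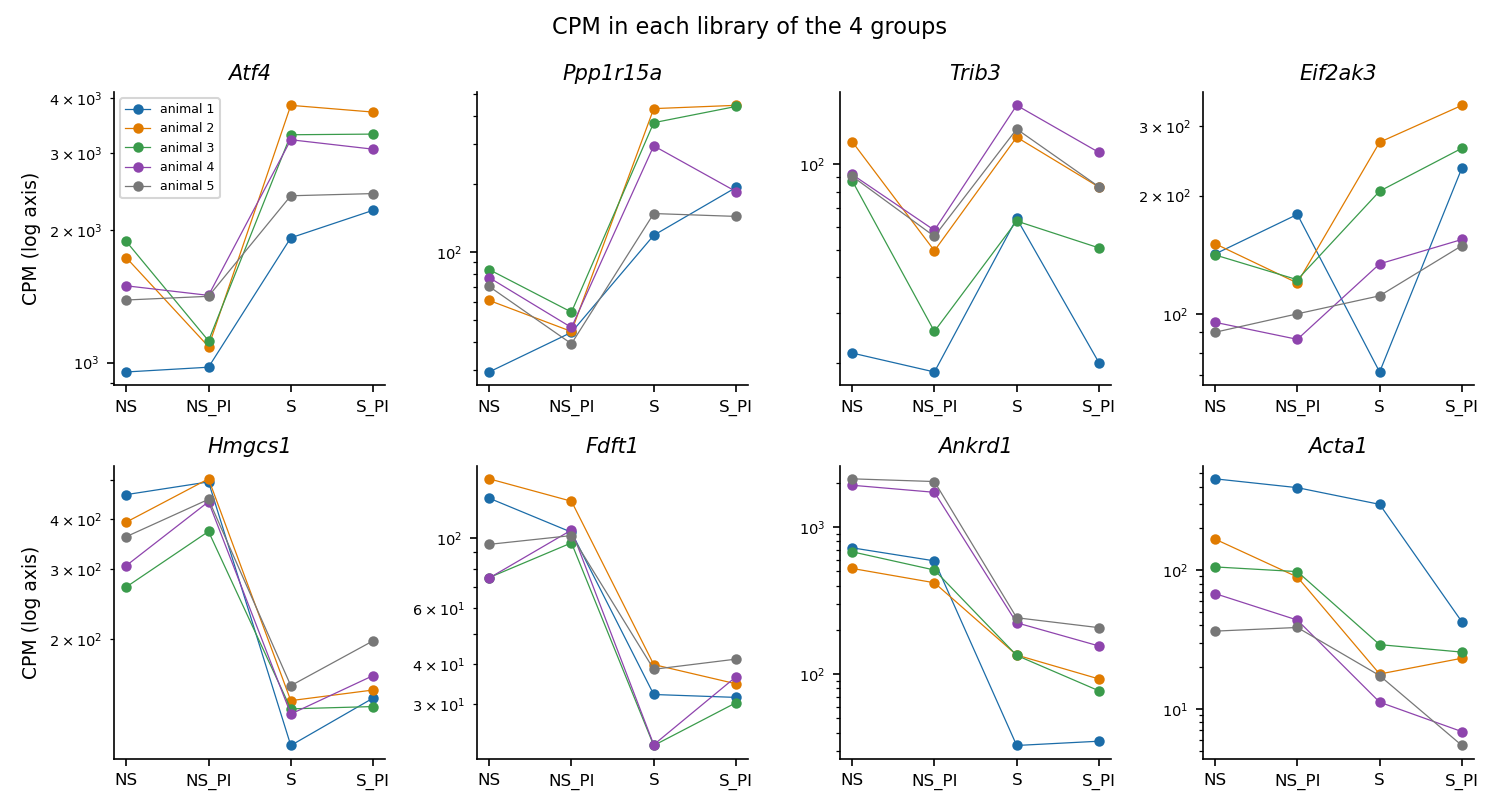
CPM (log axis) of 8 genes in every library, with lines joining the 4 groups of 1 animal. In each animal Atf4 and Ppp1r15a lie higher in S and S_PI than in NS, Trib3 is lower with inhibitor at rest and under stretch in every animal, and Hmgcs1, Fdft1 and Ankrd1 are lower in both stretched groups.

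Genes that supply amino acids were called in part. Of 18 tested members of transport and synthesis, 5 were called higher (27.8%) and 0 lower, beside 11.8% and 12.3% over all genes. The median was 0.29 (0.37 in S). Without animal 1, 4 or 5, 3, 2 and 2 members were called higher. Slc38a2, a sodium-coupled transporter, went from 416, 562, 456, 343 and 377 CPM in NS to 1124, 1719.8, 1744, 1261 and 1048 CPM in S_PI without overlap and rose by 1.67 ± 0.14 (adjusted p = 6.11e-08). Slc3a2, the heavy chain of several transporters, rose by 0.82, Slc7a1, a cationic amino acid transporter, by 0.51 and Psat1, an enzyme of serine synthesis, by 0.62 (adjusted p = 0.0828 without animal 4 and 0.0512 without animal 5). The ATF4 target Asns had -0.29 in S_PI and -0.16 in S. Of the 20 tested aminoacyl-tRNA synthetases, 0 were called higher and 1 (5.0%), Farsb, lower, beside 11.8% and 12.3% over all genes. Farsb was not called without animal 2, 3, 4 or 5 (adjusted p = 0.0514, 0.12, 0.0615 and 0.0925), and 5 members were called lower without animal 1. The synthetases' median was -0.11 in S_PI against NS, 0.03 in S and -0.54 in NS_PI, where 0 members were called. Over all tested genes the median of NS_PI against NS was -0.001. The letters TGATGNAA of the ATF4-C/EBP element stood in 7 of the synthetases' 17 promoters (41.2%), against 1.76% of all.

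Chaperones of the endoplasmic reticulum are targets of the parallel ATF6 and XBP1 branches. Their share called higher was near that of all genes, and none was called lower. Of 30 tested, 4 were called higher (13.3%) and 0 lower, beside 11.8% and 12.3% over all genes. The called members were Herpud1, Dnajb9, a cochaperone, at 0.79 ± 0.16, Sec24d, a coat protein of vesicles, at 0.68 ± 0.17, and P4hb, protein disulfide isomerase, at 0.44 ± 0.13. P4hb was not called without animal 1, 2 or 5 (adjusted p = 0.0562, 0.0544 and 0.0549). Hspa5, the main chaperone BiP, was at 6384, 11187, 9435, 8769 and 9926 CPM in NS and 9919.8, 7179, 6894, 9699 and 10912 CPM in S_PI, with a difference of -0.03 ± 0.17 and an interval of -0.38 to 0.33. Xbp1 had -0.09 ± 0.22 and Atf6 0.38 ± 0.21, neither of them called.

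Immediate-early genes, the list with the most tested members, also had the most calls by number, though not by share. Of 35 tested, 19 were called higher (54.3%) and 2 lower (5.71%), beside 11.8% and 12.3% over all genes. The median was 0.69 (0.86 in S). Besides Csrnp1, Klf4 and Fosl1, the nuclear receptor Nr4a2 rose by 1.82 ± 0.21, the AP-1 subunit Fos by 1.20, the transcription factor Myc by 1.20 and Spry2, a feedback inhibitor of receptor tyrosine kinase signalling, by 1.62. The EGF receptor ligands Ereg and Hbegf rose by 1.50 and 0.88. Gadd45g, a growth arrest gene, went from 77.5, 262, 264, 202 and 209 to 32.7, 72.0, 54.2, 54.1 and 67.5 CPM without overlap and fell by 1.80 ± 0.15. The antiproliferative gene Btg2 fell by 0.77. In this list's 26 promoters the CRE stood in 6 and the AP-1 letters in 0.

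Among inflammatory mediators, calls went mostly upward. Of 32 tested NF-κB targets and mediators, 14 were called higher (43.8%) and 3 lower (9.38%), beside 11.8% and 12.3% over all genes. The median was 0.56 (0.49 in S). Ccl3, a chemokine of macrophages, went from 12.5, 43.4, 63.3, 71.3 and 39.1 to 85.9, 106, 148, 346 and 202 CPM and rose by 1.97 ± 0.26 (adjusted p = 2.72e-05). Il6 rose by 1.29, Il1a by 1.42, Il1b by 1.01, the chemokine Cxcl1 by 1.13 and the inhibitor Nfkbia by 0.99. The 3 that fell were Csf1, the macrophage growth factor, by 1.31 ± 0.14, the coactivator Bcl3 by 1.34 and the transcription factor Irf1 by 1.13. Ccl2, a monocyte chemokine, had 0.96 in S_PI, where it was called, beside 0.31 in S. The NF-κB site stood in 16 of the list's 28 promoters (57.1%). The summed level of 19 macrophage and leukocyte markers, 7 of them called higher, was 2205 to 12314 CPM over the NS libraries and 3568 to 15379 CPM over the S_PI libraries, and their part in these rises was not tested.

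Cholesterol synthesis was the list with the most falls. Of 22 tested genes of cholesterol and fatty acid synthesis, 15 were called lower (68.2%) and 0 higher, beside 12.3% and 11.8% over all genes. The median was -0.73 (-0.84 in S). Hmgcs1, which makes HMG-CoA, went from 460.1, 393, 270.4, 306 and 361 CPM in NS to 143, 149, 136, 162 and 198 CPM in S_PI. The groups did not overlap, and Hmgcs1 fell by 1.18 ± 0.14 (adjusted p = 1.21e-05). Fdft1, squalene synthase, went from 133, 153, 75.0, 74.8 and 95.5 to 31.5, 34.8, 30.3, 36.6 and 41.6 CPM and fell by 1.57 ± 0.17. Squalene epoxidase (Sqle) fell by 1.14, lathosterol oxidase (Sc5d) by 1.00 and Hsd17b7, another enzyme of the pathway, by 1.32. Srebf2, the master regulator, fell by 0.46, while Fasn at -0.04, Acly at -0.16 and Insig1 at -0.26 were not called. The letters TCACNCCAC of the sterol regulatory element stood in 0 of the list's 16 matched promoters, against 1.14% of all.

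Among heat shock genes, all calls were rises. Of 22 tested, 10 were called higher (45.5%) and 0 lower, beside 11.8% and 12.3% over all genes. The median was 0.38 in both S_PI and S, and 6 were called higher without animal 2. Hspa1a and Hspa1b encode inducible HSP70 and are near-identical, so reads that match both may be missing from their counts. They rose by 1.72 ± 0.23 and 1.99 ± 0.34. The HSP110 family member Hspa4l rose by 1.90 ± 0.27 and the cochaperone Dnaja1 by 0.59 ± 0.14. The letters GAANNTTC of the heat shock element stood in 11 of the 18 promoters matched (61.1%), against 5.53% of all.

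**Figure D4:**
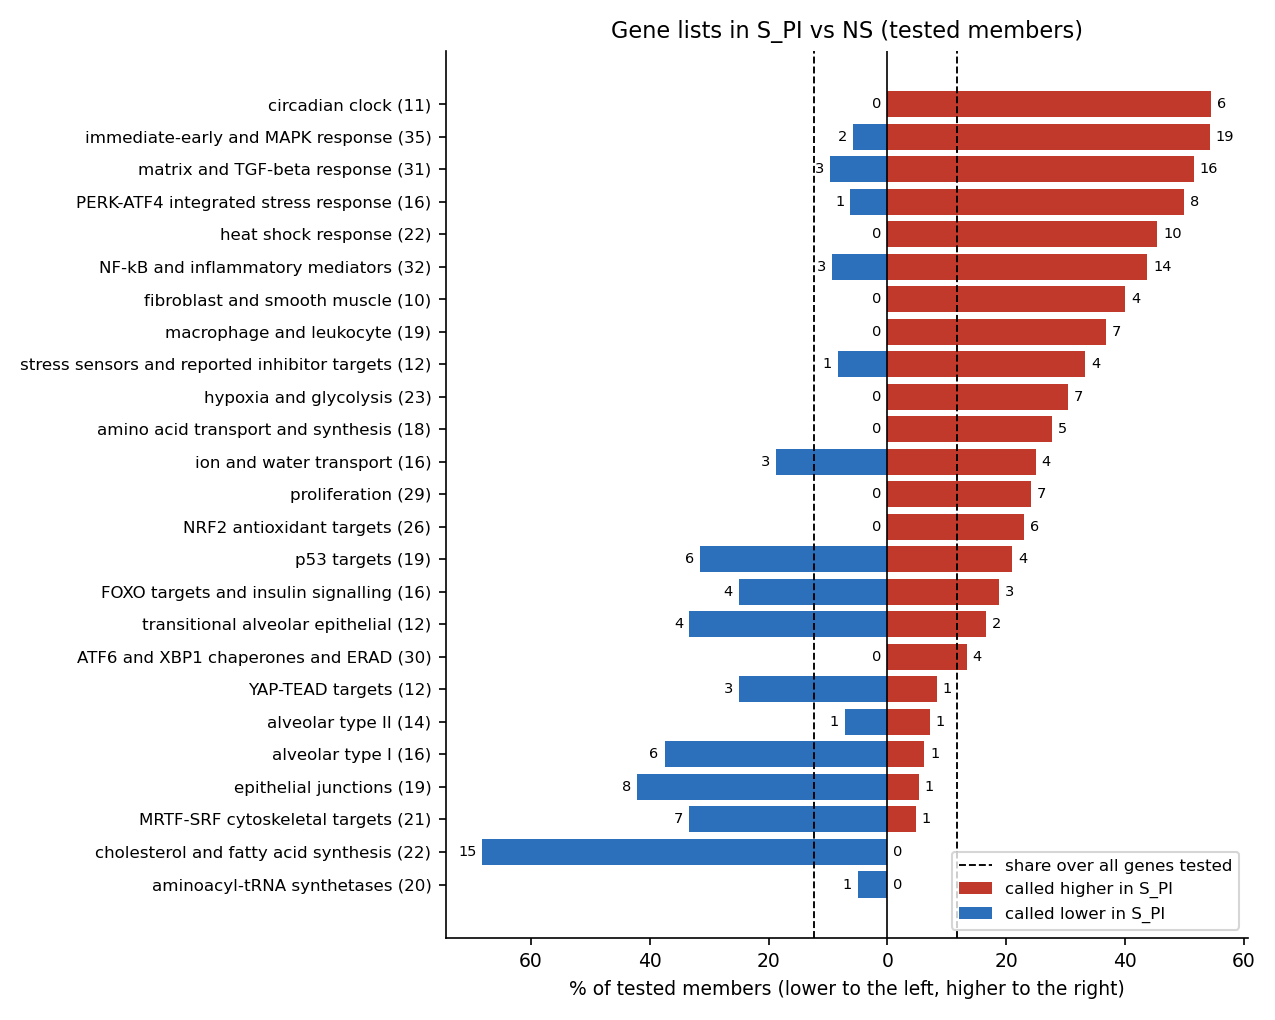
Share of tested members called higher (right) or lower (left) in S_PI against NS, in percent, for 25 lists with at least 10 tested members; numbers at the bars are counts and dashed lines the shares over all tested genes (11.8% and 12.3%). Cholesterol synthesis has 15 of 22 members lower, and immediate-early genes 19 of 35 higher.

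Hypoxia-responsive and antioxidant genes showed rises only, among the calls made. Of 23 tested hypoxia and glycolysis genes, 7 were called higher (30.4%) and 0 lower, beside 11.8% and 12.3% over all genes. The median was 0.41 (13 higher and a median of 0.54 in S), and 11 were called higher without animal 1 and also without animal 2. Ankrd37 rose by 1.70 ± 0.27, the growth factor Vegfa by 0.79 ± 0.13, Ndrg1 by 0.97 ± 0.17 and the glycolytic enzyme Gpi by 0.61 ± 0.13. Of 26 NRF2 targets, 6 were called higher (23.1%) and 0 lower, and 10 higher without animal 2. Hmox1, heme oxygenase, went from 503, 613, 1617, 1274 and 858 to 1261, 2152, 2216, 2962 and 1635 CPM and rose by 1.13 ± 0.25. Gclc, the catalytic subunit of glutathione synthesis, rose by 0.79 ± 0.19, and Gclm, its modifier, had -0.02. The aldo-keto reductase Akr1b8 rose by 1.34 ± 0.23, beside 0.61 in S, with an S_PI to S difference of 0.72 (unadjusted p = 0.00357, adjusted p = 0.999).

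Among targets of mechanical signalling, more members were called lower than higher. Of 12 tested YAP-TEAD targets, 1 was called higher (8.33%) and 3 lower (25.0%), beside 11.8% and 12.3% over all genes. These are few genes, and the list had a median of 0.12 and a mean difference of -0.34. Ankrd1 is described above, and Cyr61, a matricellular protein, went from 515, 466, 626, 715 and 779 to 116, 170.2, 153, 224 and 332 CPM without overlap and fell by 1.70 ± 0.19 (adjusted p = 5.02e-06). The growth factor Tgfb2 fell by 0.60, while Ctgf had -0.37, not called. Nt5e, the ectonucleotidase CD73, was the 1 call higher, and was not called without animal 1, 4 or 5 (adjusted p = 0.0807, 0.0558 and 0.0755). Of 21 cytoskeletal targets of MRTF and SRF, 1 was called higher (4.76%) and 7 lower (33.3%), beside 12.3% lower over all genes. The tropomyosin Tpm1 fell by 0.83 ± 0.14, the smooth muscle protein Tagln by 0.88 ± 0.15, the myosin light chain Myl9 by 1.00 and Srf itself by 0.65, while Tpm2 rose by 0.74 ± 0.18. The cytoplasmic actins Actb and Actg1 had 0.32 and 0.33, neither called.

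Among epithelial junction genes, calls were mostly falls. Of 19 tested, 8 were called lower (42.1%) and 1 higher (5.26%), beside 12.3% and 11.8% over all genes. The median was -0.46 (-0.36 in S), and 5 were called lower without animal 4. Cldn18, the main claudin of type I and type II cells, went from 673, 580.2, 380.2, 211 and 276 to 76.2, 457, 300.4, 108 and 108 CPM and fell by 1.12 ± 0.27 (adjusted p = 0.00473), with overlapping groups. The polarity protein Crb3 fell by 1.38 ± 0.27, plakoglobin (Jup) by 0.54 ± 0.13 and the gap junction proteins Gja1 and Gjb2 by 0.89 and 0.89. Pard3, a polarity scaffold, rose by 0.69, and was the 1 member called higher; there was none without animal 5. E-cadherin (Cdh1) had -0.96 and Tjp1 -0.46, not called. The mean difference over the list was -1.20 in animal 1 and 0.05 in animal 2, so animals differed widely.

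Among matrix genes and proteases, calls were mostly rises. Of 31 tested, 16 were called higher (51.6%) and 3 lower (9.68%), beside 11.8% and 12.3% over all genes. The median was 0.53 (0.47 in S), and 5 were lower without animal 1. The growth factor Bmp2 went from 27.2, 22.7, 27.9, 23.0 and 21.2 to 96.3, 102, 113, 77.8 and 97.5 CPM without overlap and rose by 1.98 ± 0.23. Has2, a hyaluronan synthase, rose by 1.82 ± 0.29, Timp1, an inhibitor of metalloproteinases, by 0.88 ± 0.15, the stromelysins Mmp3 and Mmp10 by 1.47 and 1.67 and the activin subunit Inhba by 1.59. Timp3 fell by 1.04. Itga5, the α chain of a fibronectin receptor, rose by 1.33, beside 0.70 in S. The summed level of 10 fibroblast and smooth muscle markers, 4 of them called higher, was 5075 to 9054 CPM in NS and 5126 to 17138 CPM in S_PI, and their part in these rises was not tested.

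Transport genes were split. Of 16 tested, 4 were called higher (25.0%) and 3 lower (18.8%), beside 11.8% and 12.3% over all genes. Without animal 3, 4 or 5, 2, 1 and 2 were called higher. Scnn1a and Scnn1b, the α and β subunits of the channel to which Scnn1g belongs, had -0.66 and -0.97, not called. The water channel Aqp4 fell by 1.19 ± 0.32 (adjusted p = 0.0961 without animal 2) and Clic5, a chloride channel family member, by 1.26 ± 0.35. Sgk1, a kinase that activates sodium transport, rose by 1.07, Nedd4l, the ubiquitin ligase that removes sodium channels, by 0.90 and Atp1b3, a sodium pump subunit, by 0.49 ± 0.13.

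The cells carried markers of type I cells, and markers of other cells were measured too. Mean levels over the 10 libraries were 1788 CPM for Pdpn, 456 for Ager and 68.0 for Hopx, markers of type I cells, while the type I water channel Aqp5 did not pass the filter. Sftpc, the type II surfactant protein, had 12.5 CPM, but this 1 gene does not stand for the type II list. The summed level of the 14 tested type II markers was 2321 to 9687 CPM in NS and 2496 to 12389 CPM in S_PI. That of the 16 tested type I markers was 4206 to 12547 CPM in NS and 3449 to 10029 CPM in S_PI. Of 16 tested type I markers, 6 were called lower (37.5%) and 1 higher (6.25%), beside 12.3% and 11.8% over all genes. Without animal 2, 2 were called higher. Ager, the receptor RAGE, had 700.1, 861, 589, 198 and 204 CPM in NS and 117, 1035, 717, 61.7 and 79.1 CPM in S_PI. It was lower in only 3 of 5 animals, with a fitted difference of -0.90 ± 0.30 (adjusted p = 0.0356), and was not called without animal 1, 4 or 5 (adjusted p = 0.165, 0.186 and 0.137). Akap5, a scaffold protein, fell by 1.96 ± 0.39. In bulk samples, fewer cells of a type and less RNA per cell cannot be told apart.

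Of 14 type II markers, 1 was called higher and 1 lower (7.14% each), beside 11.8% and 12.3% over all genes. The median was 0.11 and the mean difference -0.05. Cebpa, a transcription factor, rose by 0.59, and Sftpb fell by 1.32, but was not called without animal 1, 2, 3 or 5 (adjusted p = 0.106, 0.0534, 0.0657 and 0.0805). Sftpc had -0.46 ± 0.49, not called. Of 12 genes of transitional alveolar epithelium, 4 fell (33.3%) and 2 rose (16.7%). Among those that fell were the keratins Krt8, Krt18 and Krt17, by 0.81 ± 0.15, 0.91 ± 0.16 and 1.07 ± 0.22. The urokinase receptor Plaur rose by 1.18. The 2 higher became 4 without animal 1 and 1 without animal 3 and without animal 5. Krt18 was lower in S_PI than in S in 5 of 5 animals, with a difference of -0.54 ± 0.16 (unadjusted p = 0.00293, adjusted p = 0.999).

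Some macrophage and leukocyte markers were higher in S_PI. Of 19 tested, 7 were called higher (36.8%) and 0 lower, beside 11.8% and 12.3% over all genes. The mean difference over the tested markers was 0.33 log2 units, higher in 5 of 5 animals. The exact paired permutation test gave a two-sided p of 0.0625, the smallest that 5 pairs allow. Animal 1 stood at 0.71 and the others at 0.19 to 0.27. Without animal 1, 4 or 5, 4, 4 and 2 were called higher, and scaling by library size only left 3. Ctss, a lysosomal protease, rose by 0.54 ± 0.12 and Fcer1g, an Fc receptor chain, by 0.65 ± 0.16, while Ptprc (CD45) had 0.24 and Csf1r -0.02. Marco and Cd52 were at 0 in all 10 libraries. Of 10 fibroblast and smooth muscle markers, 4 were called higher, or 2 without animal 1 or animal 4; Col1a1 rose by 0.77 ± 0.19. The endothelial genes Cdh5 and Cldn5 and the globin genes Hba1, Hba2 and Hbb were at 0. Of 4 tested endothelial markers, 0 were called higher and 1, Esam, lower; Esam fell by 1.48. Of 3 airway markers, Tppp3 was called higher, at 0.92, but not without animal 3 or 5 (adjusted p = 0.072 and 0.0806), and of 3 mesothelial markers none was called, or 2 without animal 1.

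**Figure D5:**
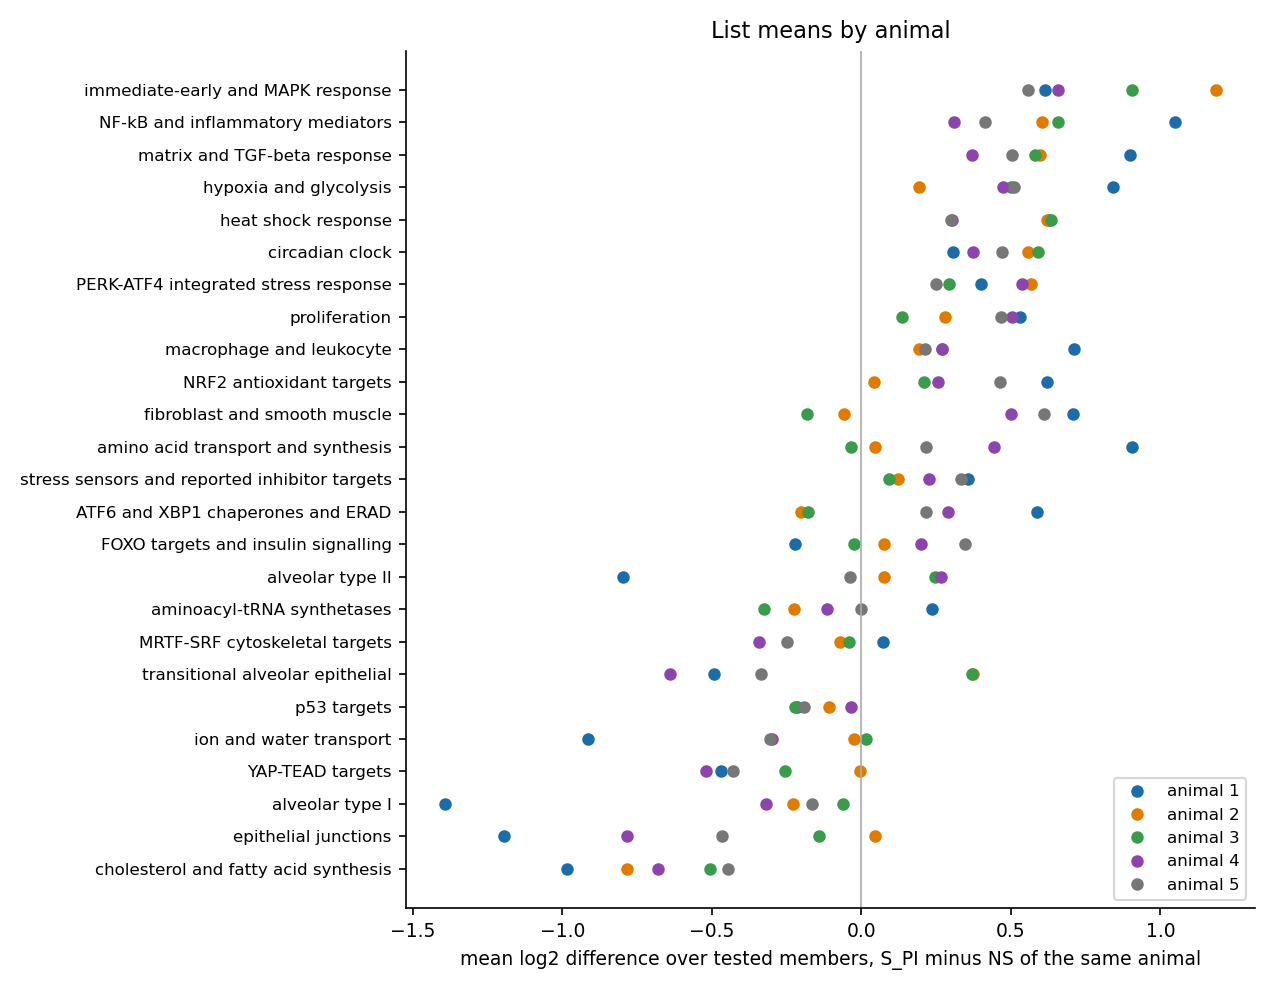
Mean log2 difference over the tested members of each list (x axis), S_PI minus NS of the same animal, 1 dot per animal. Cholesterol synthesis lies below 0 and immediate-early genes above 0 in all 5 animals, and animal 1 lies apart in type I, type II and macrophage markers.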

How the data were processed

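RNA from 20 libraries (5 per group) was sequenced from the 3′ end with QuantSeq (forward). Per the submitters' processing notes, STAR and HTSeq were used with the rat build rn6; the sources used here give neither their versions nor the strand setting, so a gene and an overlapping antisense gene cannot be told apart. The authors deposited whole-number read counts per gene for 17337 genes, without normalization. Rows that name no gene were dropped. Among these, the row of alignments that were not unique held 38.1% (NS, animal 2) to 57.7% (S_PI, animal 4) of all records in the 10 libraries. No molecular identifiers are named, so floors cover counting error only.

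All 20 libraries were fitted in edgeR 4.0.16 (R 4.3.3): filterByExpr by group (8320 genes kept), TMM scaling, a model of group plus animal (12 residual degrees of freedom) and quasi-likelihood F tests of each contrast, called at a Benjamini-Hochberg adjusted p below 0.05. SE is the absolute log2 fold change divided by the root of F. Log2 CPM per library used a prior count of 2. The replicate number was taken as the animal from the labels' pooling protocol and the name of the authors' table; deviations of same-numbered NS and S_PI libraries correlated at 0.35 to 0.61, and each of the 20 libraries correlated best with its own animal's. DESeq2 1.42.0 was an alternative, with other scalings, filters, designs and left-out animals.

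Genes were named by these rules: the 12 largest rises and 12 largest falls among called genes that averaged at least 10 CPM and had the same sign in 5 of 5 animals; up to 4 called members with the smallest p from each list; the 8 largest calls in each direction of S_PI against S, of which there were none; and Eif2ak3, Atf4, Ddit3, Ppp1r15a, Trib3, Asns, Hspa5, Xbp1, Atf6, Ankrd1, Csrnp1, Sftpc, Ager, Ripk1 and Kit, with a further gene that is not reported here. Other list members named were chosen after their values were seen. The comparison, members and lists were chosen with earlier results of these data known. Promoters came from RefSeq, 6815 of 8320 genes matching by symbol, 411 of them by a synonym. Figures were drawn with matplotlib 3.10.9.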

Additional observations from a re-analysis of the deposited data

Results flagged for a closer look

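In 145 sets of 5 differences between S_PI and NS, 1 per animal (117 named genes and the means of 28 lists), 10 held 1 animal far from the other 4, by Dixon's gap test with a critical value of 0.710. Chance alone gives such a set about 1 time in 20. In 8 of the 10, the animal was animal 1. Its log2 difference was 4.01 for Tnfaip6 (1.50 to 1.87 in the others), -5.49 for Scnn1g (-2.68 to -2.16), -3.92 for Dcdc2 (-1.92 to -1.71), 0.99 for P4hb (0.24 to 0.44) and -1.65 for Tgfb2 (-0.48 to -0.07). The mean of the type I markers was -1.39 in animal 1 (-0.32 to -0.06 in the others), that of the type II markers -0.80 (-0.04 to 0.27) and that of the macrophage and leukocyte markers 0.71 (0.19 to 0.27). Nck1 stood at 0.056 in animal 3 (0.71 to 0.91 in the others) and Col3a1 at 1.13 in animal 4 (0.29 to 0.48).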

How the results depend on the processing

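Without the animal as a block (no pairing), 735 genes were called in S_PI against NS, 352 higher and 383 lower, and 818 in S against NS, so the counts rest on the pairing; the no-block fit also took away the calls of 52 of the 111 called named genes, and the cause was not tested. Leaving out 1 animal at a time gave 1393 to 1845 calls in S_PI against NS (672 to 936 higher, 676 to 909 lower), 1421 to 1770 in S against NS, 0 in S_PI against S and 0 to 4 in NS_PI against NS. NS_PI against NS gave 5 calls by DESeq2, 4 with no filter on low counts and 31 when only the compared libraries were fitted, and S against NS then gave 1152 calls. Among uncalled genes, the sign turned on leaving out an animal for Asns (-0.47 to 0.024), Hspa5 (-0.19 to 0.14, with 0.10 without animal 3), Xbp1 (-0.26 to 0.11) and Sftpc (-0.77 to 0.18). Of the 111 called named genes, 0 changed sign and 91 kept their call in each alternative in which they were tested, other than the missing block (Cilp2, Ptgs2, Fbxo32 and Sftpb did not pass the filter at a mean of 10 CPM and have no value there). These included the 24 genes with the largest changes, of which 18 also kept it without the block; the others were Acta1, Atp12a, Cxcl2, Scnn1g, Serpinb2 and Tnfaip6. With 5 animals, the median 95% interval of S_PI against S reached 0.43 log2 units to either side.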

Other observations

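Genes of the circadian clock were called higher in 6 of 11 tested cases (54.5%) and lower in 0, beside 11.8% and 12.3% over all genes. Their median was 0.51 (0.45 in S), and 3 were called higher without animal 2 or without animal 3. The repressor Cry1 did not overlap between groups, with means of 15.3 ± 2.23 CPM in NS and 34.1 ± 11.3 CPM in S_PI (SD, n = 5), and rose by 1.14 ± 0.21 (edgeR adjusted p = 0.000605). The activator Arntl (BMAL1) rose by 1.07 ± 0.25 and the repressor Nr1d1 by 1.06, while Per2 at -0.15 and Dbp at -0.50 were not called. Of 29 proliferation genes, 7 were called higher (24.1%) and 0 lower, with 1 lower without animal 1. The replication clamp Pcna rose by 0.80 ± 0.15, the mitotic kinase Plk1 by 0.90 ± 0.18 and the cyclin Ccnb1 by 1.02 ± 0.24, while Mki67 had 0.76, not called.

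Of 16 targets of FOXO factors, 3 were called higher (18.8%), 5 without animal 1, and 4 lower (25.0%), beside 11.8% and 12.3% over all genes. The muscle ubiquitin ligases Fbxo32 and Trim63 changed in opposite directions: Fbxo32 rose by 2.27 ± 0.45, from a mean of 2.72 CPM near the floor, and Trim63 fell by 1.87 ± 0.35, from 30.9, 96.2, 53.3, 2.36 and 5.42 to 2.29, 26.2, 20.4, 0 and 2.04 CPM. Cited2, a transcriptional regulator, rose by 1.34 ± 0.20. Of 19 p53 targets, 4 were called higher (21.1%) and 6 lower (31.6%). Without animal 2, 2 and 2 were, and without animal 4, 2 and 3. Plk3, a stress kinase, rose by 0.97 ± 0.20 and the death receptor Fas fell by 1.27 ± 0.28, while Cdkn1a (p21) had -0.25 and Bax -0.02, neither called.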
